A study of Rattus norvegicus with 22 samples.

Results

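Genes of DNA replication and DNA repair were followed in rat glioma and in brain, before and 6 h after synchrotron microbeam radiation therapy (MRT). They were given as 46 names, grouped by function and chosen with earlier results of these data known, which stand for 45 genes because Cdc45 and Cdc45l are the same gene. The 45 genes have 60 of the 31042 probe sets tested (34 genes have 1 probe set and 11 have several) and are 45 of the 13718 genes that the array annotation names singly. Each gene is represented by its probe set with the highest mean over all arrays. By role, 22 are replication genes (the Mcm helicase, its activators, polymerases with the clamp and its loader, nucleotide supply, and S-phase entry with chromatin assembly) and 23 are checkpoint and repair genes.

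The samples came from male Fischer rats, 8 weeks old on arrival, which carried 9L gliosarcoma cells implanted in the right caudate nucleus 1 week later. 9L is an established rat line, so every tumor grew from the same cell line in a rat with its own immune system. Rats 6 to 11 were irradiated 10 days after implantation with microbeams of 400 Gy in their paths and 18 Gy in the valleys between them, and rats 1 to 5 were not irradiated. Tumor and contralateral brain were punched from frozen sections of the same animals, giving 5 untreated tumors, 6 MRT tumors, 5 untreated contralateral samples and 6 MRT contralateral samples, 1 array per sample. Contralateral brain comes from tumor-bearing rats in every group, and the untreated rats were implanted in common with those of another experiment.

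Arrays were Affymetrix GeneChip arrays of the rat genome, and all levels are log2 signals after RMA, the background correction and normalization used by the authors. Array medians lay between 7.64 and 7.75. A signal of 58 (5.86 on the log2 scale) is the lower quartile of all values, and differences between means below it rest on low signals. Levels were not compared between probe sets. Throughout, ± after a difference or a change is the standard error (SE) of the limma fit. Of 5 neuron markers 5 were lower in untreated tumor than in untreated contralateral brain (median log2 difference −1.07, log2 of the summed signals 14.8 to 15.6 against 15.8 to 16.1), and 5 of 5 mesenchymal markers of the tumor were higher (median 3.33, 15.6 to 15.9 against 11.8 to 12.3). Of 5 oligodendrocyte markers 0 passed the test (median −0.34). Of 5 astrocyte markers 3 were lower and 1 was higher in tumor (median −0.66). Neuron, oligodendrocyte and astrocyte marker signal thus remained in the tumor punches.

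DNA is copied in S phase. The Mcm hexamer is loaded on origins in G1 and is switched on by Cdc45 and the GINS complex, after which polymerases copy both strands behind it. Checkpoint kinases slow the cycle when forks stall or DNA breaks, and repair enzymes rejoin the ends by homologous recombination or by end joining. Many of these genes are transcribed at the start of S phase by E2F factors, which are held back by the retinoblastoma proteins in resting cells, and most cells of the adult brain do not divide.

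Promoters are shown because E2F words were more common among the members than among all promoters. RefSeq promoters of the rat assembly GRCr8 (250 bases before to 50 after the gene start) were matched for 36 of the 45 genes. An E2F word was any of TTTGGCGC, TTTGCCGC, TTTCGCGC or TTTCCCGC on either strand, so that a run such as TTTGGCGCGAAA holds a pair of overlapping words. Of the 36 promoters 16 (44.4%) held at least 1 word, 52.6% of the replication genes and 35.3% of the checkpoint and repair genes. The same words were present in 2.14% of 33469 rat promoters and in 3.39% of the 8765 promoters of genes named on the array. The CCAAT box (CCAAT on either strand) was found in 47.2% of the members and 37.7% of the genes named on the array, and the CHR element (TTTGAA on either strand) in 16.7% and 11.9%. A match is only a run of letters and was not tested for binding.

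Pola1 and Topbp1 are shown whole because both fell in contralateral brain after MRT. Mcm6 is shown because it had the largest tissue difference of the helicase, and Mcm5 because it held the most words (3). Blm and Ccne2, which also fell in brain, had no matched promoter, and neither had Rrm2. The median brain change after MRT was −0.09 for the 16 members with an E2F word and −0.03 for the 20 without one. A link between the words and the falls was not tested. Capitals mark E2F words, and each promoter is given 5′ to 3′ on the strand of its gene. They lie at chrX:62342306-62342605 (minus strand), chr8:112766541-112766840 (plus), chr13:42404303-42404602 (minus) and chr19:13488563-13488862 (plus), all in GRCr8.
Pola1: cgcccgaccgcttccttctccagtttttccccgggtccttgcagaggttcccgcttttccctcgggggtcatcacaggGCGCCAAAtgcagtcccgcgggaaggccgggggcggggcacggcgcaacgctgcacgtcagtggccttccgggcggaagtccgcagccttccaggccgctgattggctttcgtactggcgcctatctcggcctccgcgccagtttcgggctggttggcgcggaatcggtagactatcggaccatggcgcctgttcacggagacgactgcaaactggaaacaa
Topbp1: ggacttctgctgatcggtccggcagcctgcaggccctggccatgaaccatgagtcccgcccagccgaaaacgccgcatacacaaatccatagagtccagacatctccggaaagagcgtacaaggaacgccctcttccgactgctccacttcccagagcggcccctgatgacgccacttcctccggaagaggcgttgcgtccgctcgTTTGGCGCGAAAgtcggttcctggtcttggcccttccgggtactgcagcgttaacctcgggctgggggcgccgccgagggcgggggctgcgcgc
Mcm6: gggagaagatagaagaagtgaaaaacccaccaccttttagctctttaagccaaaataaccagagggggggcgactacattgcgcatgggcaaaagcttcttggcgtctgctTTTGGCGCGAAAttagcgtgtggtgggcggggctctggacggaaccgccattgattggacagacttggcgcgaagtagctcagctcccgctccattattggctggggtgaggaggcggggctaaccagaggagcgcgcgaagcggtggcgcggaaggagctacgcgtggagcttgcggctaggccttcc
Mcm5: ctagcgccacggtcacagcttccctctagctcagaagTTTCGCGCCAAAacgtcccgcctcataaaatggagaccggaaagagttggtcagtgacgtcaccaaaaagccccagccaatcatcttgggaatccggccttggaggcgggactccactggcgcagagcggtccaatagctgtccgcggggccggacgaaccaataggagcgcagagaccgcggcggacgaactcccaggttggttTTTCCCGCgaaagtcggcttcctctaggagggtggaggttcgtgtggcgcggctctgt

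Topbp1 and Mcm6 hold the same run, TTTGGCGCGAAA, and no CHR element. For 8 further members, picked as examples of both groups of genes, 28 bases around a word are given, again with the words in capitals. On the minus strand these are Mcm2 at chr4:122918087-122918114, Mcm3 at chr9:30733716-30733743, Mcm7 at chr12:22163213-22163240, Pole at chr12:52053647-52053674, Tyms at chr9:120776103-120776130 and Chek1 at chr8:44629854-44629881. On the plus strand they are Gins1 at chr3:160184889-160184916 and Fancd2 at chr4:148234707-148234734.
Mcm2: cccggtTTTCGCGCGAAAacccgtggca
Mcm3: cttgggaagtTTTCGCGCcagggaggag
Mcm7: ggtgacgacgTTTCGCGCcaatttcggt
Gins1: agcctaTTTGGCGCCAAAgagaggagct
Pole: acatgagagcGCGCCAAAttttcccggg
Tyms: aggtgcgggtTTTGGCGCcgactacact
Chek1: gcaggttttgGCGGGAAAagctgtgcac
Fancd2: cgtccgacaaGCGGGAAAgtcgaaaacg

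Replication and repair genes were higher in tumor than in contralateral brain, before and after MRT. In untreated rats 43 of the 45 genes passed the test as higher in tumor, 1 (Tp53bp1) as lower, and 1 (Polk) did not pass. With the rat as a block 42 were higher and 1 lower, Wee1 being lost. Over all probe sets 22% were higher and 29.3% lower, and of the genes taken at 1 probe set each 29.9% were higher. The median log2 difference of the members was 1.64, against −0.12 over all probe sets. The values of the 5 tumors lay above those of all 5 contralateral samples for 40 members (16.1% of all probe sets) and below them for 1 (20.4%). In MRT rats 42 were higher (22.3% of all probe sets) and 1 was lower (30.1%), with a median of 1.91. The tissues did not overlap in MRT rats for 35 higher members (13.6% of all probe sets) and for 1 lower member (16.5%). In bulk samples more cells of a type and more RNA per cell cannot be told apart. The main p-values set each difference against the spread within groups, with both tissues of a rat taken as separate samples.

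The 22 replication genes differed more (median 2.74, 6.70-fold, all 22 higher) than the 23 checkpoint and repair genes (median 1.15, 2.21-fold, 21 higher and 1 lower). This order was described by medians only and was not tested. Mitosis genes, a comparison list of 16 measured genes, had a larger median of 4.69 and were all higher. Among the 36 members with a promoter, the median was 2.92 for the 16 with an E2F word (−0.13 to 4.23) and 1.44 for the 20 without one (−0.43 to 4.45), so both sets held members with large and small differences.

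**Figure D1:**
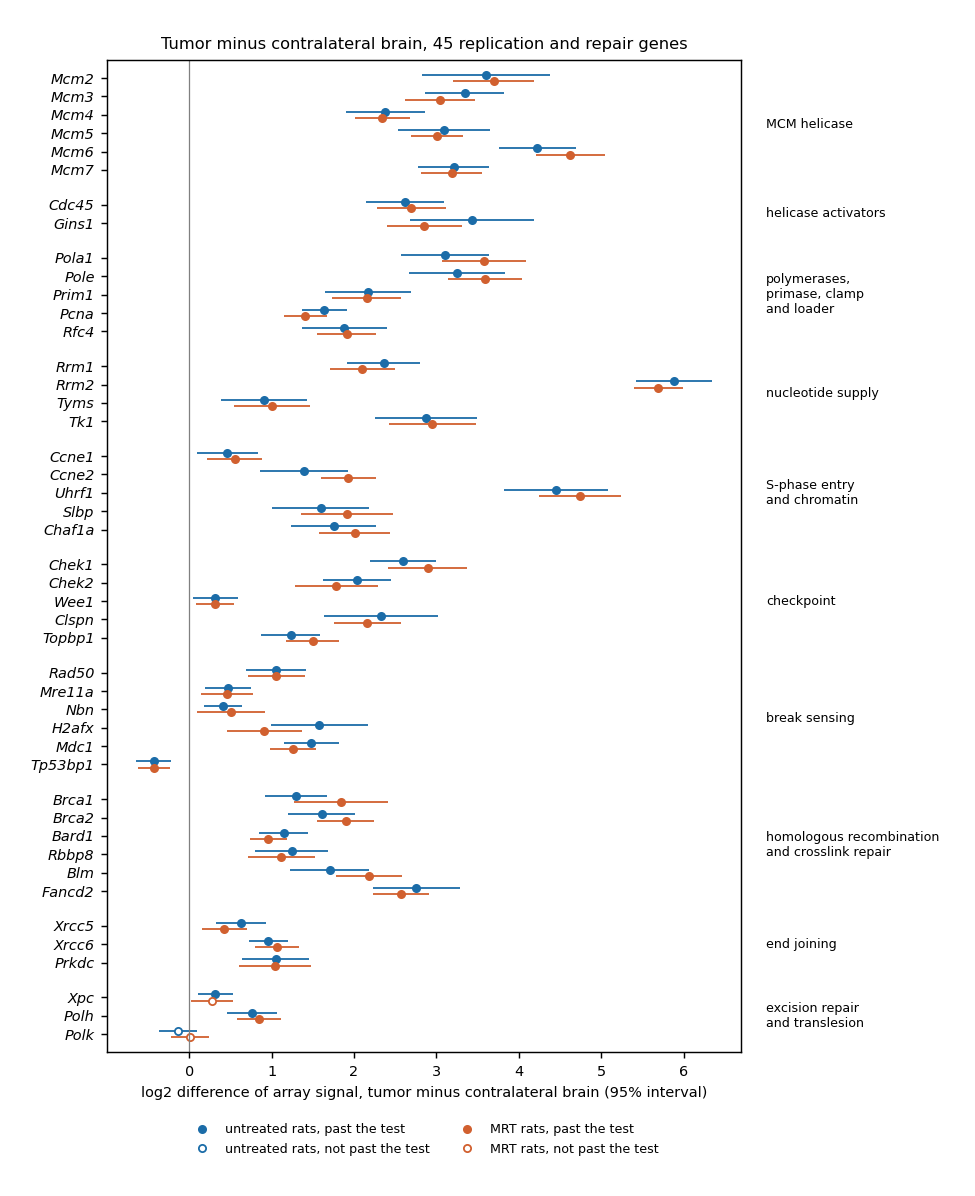
Log2 difference of array signal, tumor minus contralateral brain, for the 45 genes grouped by role, in untreated rats (blue, n = 5) and MRT rats (orange, n = 6). Points are limma estimates, lines are 95% intervals, and filled points passed the test. The intervals lie above 0 for most genes, and Rrm2 lies farthest right (5.88 in untreated rats). Tp53bp1 is the member past the test below 0 (−0.43), and Polk lies below 0 in untreated rats (−0.13) without passing.

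The Mcm helicase, the motor that unwinds DNA at the fork, was higher in tumor for 6 of 6 subunits (median log2 difference 3.28). Mcm6 had log2 signals of 11.34, 11.51, 11.26, 10.88 and 10.27 in untreated tumors of rats 1 to 5 and 6.55, 7.08, 6.89, 6.89 and 6.71 in contralateral brain of the same rats. The tissues were far apart on every array, by 4.23 ± 0.21 (18.7-fold, adjusted p = 1.03e-07). After MRT Mcm6 ranged from 10.60 to 11.63, median 11.06, in tumor and from 6.09 to 6.78, median 6.41, in brain, a difference of 4.63 ± 0.20 (adjusted p = 1.43e-09). Mcm4 had the smallest difference of the subunits, with 11.66, 11.57, 11.45, 11.17 and 10.38 in untreated tumors and 8.75, 9.01, 9.01, 8.62 and 8.96 in brain. The lowest tumor, rat 5, still lay above all brain samples, and the difference was 2.38 ± 0.22 (5.2-fold, adjusted p = 9.02e-06). MRT tumors ranged from 10.81 to 11.67, median 11.28, and MRT brain from 8.71 to 9.18, median 8.91, a difference of 2.34 ± 0.16 (adjusted p = 8.15e-08). Mcm2, Mcm3, Mcm5 and Mcm7 lay between them at 3.60, 3.34, 3.09 and 3.21 in untreated rats.

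Both helicase activators were higher. Gins1, a subunit of the GINS complex, had 10.18, 9.77, 9.66, 9.19 and 8.28 in untreated tumors and 5.98, 5.91, 6.86, 5.49 and 5.70 in untreated brain, where rat 3 stood highest. The tissues did not overlap, with a difference of 3.43 ± 0.34 (10.8-fold, adjusted p = 1.83e-05). In MRT rats Gins1 ranged from 8.09 to 9.45, median 8.94, in tumor and from 5.67 to 6.55, median 5.95, in brain (difference 2.85 ± 0.21, adjusted p = 2.29e-07). Cdc45, which joins GINS at the helicase, had 10.46, 10.44, 10.44, 9.98 and 9.26 in untreated tumors against 7.29, 7.41, 7.61, 7.64 and 7.53. Its difference was 2.62 ± 0.22 in untreated rats (adjusted p = 3.91e-06) and 2.69 ± 0.19 in MRT rats (adjusted p = 1.71e-07), where tumors ranged from 9.59 to 10.64, median 10.52, and brain from 7.32 to 7.86, median 7.55. Of the other probe sets of Cdc45, a pair gave 2.77 and 2.95 in untreated rats, and the last gave 0.02 with all 4 group means below the lower quartile of all signals.

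Polymerases, primase, clamp and clamp loader were higher for 5 of 5 (median 2.17). Pole, the catalytic subunit of the leading-strand polymerase, had 9.60, 9.64, 9.39, 8.81 and 8.27 in untreated tumors and 5.88, 5.67, 6.13, 6.30 and 5.46 in brain. The tissues were separate and the difference was 3.25 ± 0.27 (9.52-fold, adjusted p = 3.65e-06), and 3.59 ± 0.21 after MRT (adjusted p = 2.44e-08), when Pole ranged from 8.60 to 9.72, median 9.26, in tumor and from 5.13 to 6.09, median 5.58, in brain, the latter mean lying below the lower quartile of all signals. Pcna, the sliding clamp, differed least. It had 13.16, 13.21, 13.10, 13.01 and 12.56 in untreated tumors and 11.30, 11.42, 11.43, 11.24 and 11.44 in brain, 1.64 ± 0.13 apart (3.11-fold, adjusted p = 2.22e-06). Pcna was well expressed in both tissues, ranging after MRT from 12.78 to 13.29, median 12.98, in tumor and from 11.39 to 11.83, median 11.64, in brain (difference 1.41 ± 0.12, adjusted p = 7.89e-07). Pola1, the catalytic subunit of the polymerase that primes synthesis, Prim1, the primase, and Rfc4, a subunit of the clamp loader, were higher by 3.10, 2.17 and 1.88.

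Nucleotide supply held the largest difference of all members. Rrm2, the regulated subunit of ribonucleotide reductase that makes deoxynucleotides, had 13.26, 13.38, 13.42, 13.02 and 12.62 in untreated tumors and 6.61, 7.48, 7.69, 7.38 and 7.12 in brain. Its tumor signals were the higher ones by 5.88 ± 0.21 (59.1-fold, adjusted p = 9.03e-09), and a second probe set gave 5.18. MRT tumors ranged from 12.54 to 13.31, median 13.14, and MRT brain from 7.19 to 7.39, median 7.27, a difference of 5.69 ± 0.14 (adjusted p = 8.89e-12). Tyms, thymidylate synthase, had 8.47, 7.38, 7.64, 7.16 and 7.18 in untreated tumors and 7.01, 6.32, 6.55, 6.57 and 6.85 in brain. Rat 1 was high in both tissues, and the difference was 0.91 ± 0.24 (1.87-fold, adjusted p = 0.00795). After MRT the tissues overlapped for Tyms, with 7.41 to 8.27, median 7.85, in tumor and 6.17 to 7.60, median 6.87, in brain (difference 1.00 ± 0.22, adjusted p = 0.00156). Rrm1, the large reductase subunit, and Tk1, thymidine kinase, were higher by 2.36 and 2.87.

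S-phase entry and chromatin genes were higher for 5 of 5 (median 1.60). Uhrf1, which guides maintenance of DNA methylation at the fork, had 11.73, 11.44, 11.70, 10.90 and 9.98 in untreated tumors and 6.78, 6.57, 6.63, 6.86 and 6.66 in brain. The gap was 4.45 ± 0.29 (21.9-fold, adjusted p = 6.16e-07) although rat 5 stood below the other tumors, and it was 4.75 ± 0.23 after MRT (adjusted p = 4.23e-09, tumors from 10.38 to 11.96, median 11.45, brain from 6.36 to 6.74, median 6.49). Ccne1, cyclin E1, which drives entry into S phase, had 8.98, 9.44, 9.49, 9.22 and 8.51 in untreated tumors against 8.58, 8.68, 8.82, 8.64 and 8.62 in brain. Here the tumor of rat 5 lay below every brain sample, the tissues overlapped, and the difference of 0.46 ± 0.17 was near the threshold (adjusted p = 0.0406). MRT rats gave 8.70 to 9.65, median 9.24, in tumor and 8.39 to 9.04, median 8.63, in brain (difference 0.55 ± 0.16, adjusted p = 0.00919), again with overlap. Ccne2, the second cyclin E, Chaf1a, a histone chaperone at the fork, and Slbp, which binds histone mRNA, were higher by 1.39, 1.75 and 1.60. Other probe sets differed for 2 of them, 0.21 for Ccne2 and −0.20 and −0.04 for Slbp, and none of these passed the test. Their brain means, and for Slbp the tumor means too, were below the lower quartile.

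Checkpoint genes were higher for 5 of 5 (median 2.04). Chek1, the kinase that answers stalled forks, had 9.12, 8.87, 8.85, 8.48 and 8.01 in untreated tumors and 6.02, 6.00, 6.13, 6.25 and 5.98 in brain. The tissues were separate by 2.59 ± 0.18 (6.02-fold, adjusted p = 1.19e-06) and by 2.89 ± 0.22 after MRT (adjusted p = 3.26e-07), when Chek1 ranged from 8.20 to 9.47, median 8.91, in tumor and from 5.61 to 6.21, median 5.95, in brain. Wee1, the kinase that holds back the mitotic cyclin-dependent kinase, differed least, with 9.86, 9.96, 10.05, 9.68 and 9.42 in tumors and 9.62, 9.50, 9.46, 9.36 and 9.45 in brain. Rat 5 was again the low tumor and overlapped with brain. The difference of 0.32 ± 0.12 sat at the threshold (adjusted p = 0.0499) and did not pass at a second probe set (0.26). With the rat as a block, since both tissues come from the same animals, Wee1 did not pass (adjusted p = 0.052). In MRT rats Wee1 differed by 0.31 ± 0.11 (adjusted p = 0.0278), with 9.48 to 10.03, median 9.78, in tumor and 9.34 to 9.71, median 9.42, in brain. Chek2, the kinase activated by breaks, Clspn, the adaptor of Chek1, and Topbp1, the activator of the kinase Atr, were higher by 2.04, 2.33 and 1.23. The untreated brain means of Chek2 and Clspn were below the lower quartile of all signals, so their differences rest on low signals there. The second probe set of Topbp1 gave 1.01 and did not pass.

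Of 6 break sensing genes 5 were higher and 1 was lower, with a median of 0.76, and the tissues did not overlap for any of them in untreated rats. H2afx (now H2ax), the histone variant phosphorylated around breaks, had 10.54, 10.09, 10.57, 9.63 and 9.22 in untreated tumors and 8.25, 8.24, 9.07, 8.40 and 8.21 in brain, where rat 3 stood above the rest. It differed by 1.58 ± 0.27 (2.98-fold, adjusted p = 0.000576). After MRT the tissues overlapped for H2afx, from 9.02 to 10.32, median 9.41, in tumor and from 8.28 to 9.15, median 8.49, in brain (difference 0.91 ± 0.21, adjusted p = 0.00252). Mdc1, which binds phosphorylated H2ax, had the largest difference of the group in MRT rats, 1.26 ± 0.13 (adjusted p = 3.56e-06, from 8.86 to 9.44, median 9.22, in tumor and from 7.58 to 8.23, median 7.98, in brain). Tp53bp1, which steers breaks to end joining, was the single member past the test as lower in tumor. It had 9.45, 9.70, 9.72, 9.78 and 9.56 in untreated tumors and 9.96, 10.19, 10.09, 10.19 and 9.95 in brain. Every tumor lay below every brain sample, by −0.43 ± 0.10 (adjusted p = 0.0032), and a second probe set gave −0.57. MRT rats gave −0.43 ± 0.09 (adjusted p = 0.00108, 9.47 to 9.68, median 9.58, in tumor and 9.79 to 10.28, median 10.00, in brain). The Mre11 complex, which first binds broken ends, was higher by 1.05 for Rad50, 0.47 for Mre11a (now Mre11) and 0.41 for Nbn. Another probe set of Rad50, below the lower quartile in all 4 groups, gave −0.02 and did not pass.

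Homologous recombination and crosslink repair genes were higher for 6 of 6 (median 1.45). Fancd2, a core protein of crosslink repair, had 10.05, 9.94, 9.76, 9.73 and 8.57 in untreated tumors and 6.85, 6.91, 6.63, 6.78 and 7.10 in brain. No array overlapped, and the difference was 2.76 ± 0.24 (6.76-fold, adjusted p = 6.83e-06) and 2.57 ± 0.16 in MRT rats (adjusted p = 3.67e-08, from 8.83 to 9.67, median 9.28, in tumor and from 6.34 to 6.98, median 6.71, in brain). Bard1, the partner of Brca1, had 7.39, 7.32, 7.29, 6.89 and 6.73 in tumors and 6.11, 5.95, 5.91, 5.98 and 5.95 in brain. These were the closest levels of the group, 1.15 ± 0.13 apart (2.21-fold, adjusted p = 5.58e-05), and 0.96 ± 0.11 apart after MRT (adjusted p = 6.95e-06, 6.74 to 7.32, median 6.99, in tumor and 5.93 to 6.11, median 6.07, in brain). Blm, a helicase that resolves recombination intermediates, Brca2 and Brca1, which act in recombination, and Rbbp8, which starts end resection, were higher by 1.70, 1.61, 1.29 and 1.24. The brain level of Brca1 was below the lower quartile of all signals, so its difference rests on low signals there.

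End joining genes were higher for 3 of 3 at the probe sets that stand for them (median 0.96), but the probe sets of Xrcc5 disagreed. Prkdc, the catalytic subunit of the DNA-dependent kinase, had 9.62, 9.66, 9.14, 9.34 and 8.78 in untreated tumors and 8.20, 8.62, 7.85, 8.30 and 8.30 in brain. The tissues did not overlap, at 1.05 ± 0.19 (adjusted p = 0.000744). Xrcc6 (Ku70) had the largest difference of the group after MRT, 1.06 ± 0.12 (adjusted p = 1.16e-05, 8.69 to 9.41, median 9.11, in tumor and 7.86 to 8.22, median 8.03, in brain). Xrcc5 (Ku80) had 9.19, 9.60, 9.37, 9.31 and 8.84 in untreated tumors and 8.39, 8.68, 8.59, 8.82 and 8.67 in brain. Its difference was the smallest, 0.63 ± 0.14 (adjusted p = 0.00299) and 0.43 ± 0.13 after MRT (adjusted p = 0.0134, 8.74 to 9.48, median 9.12, in tumor and 8.42 to 8.82, median 8.70, in brain). A second probe set of Xrcc5 was lower in tumor (−0.60, adjusted p = 0.0033, with tumor means below the lower quartile), and the mean of both gave 0.02 in untreated rats. Xrcc5 is counted as higher by the rule, but no direction can be given for this gene.

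Excision repair and translesion genes came last, with 2 of 3 higher in untreated rats (median 0.31). Polh, the polymerase that passes ultraviolet lesions, had 7.18, 7.10, 6.92, 6.67 and 6.48 in untreated tumors and 6.21, 6.07, 5.93, 6.17 and 6.19 in brain, 0.76 ± 0.14 apart (adjusted p = 0.000913). It was 0.84 ± 0.12 apart in MRT rats (adjusted p = 7.84e-05, 6.75 to 7.35, median 7.06, in tumor and 6.07 to 6.44, median 6.19, in brain). Xpc, which detects distorted DNA, differed by 0.31 ± 0.10 in untreated rats (adjusted p = 0.0181) and by 0.27 ± 0.12 in MRT rats, where the test was not passed (adjusted p = 0.0642). Polk, another translesion polymerase, had 4.64, 4.86, 4.46, 4.52 and 4.64 in untreated tumors and 4.75, 4.70, 4.81, 4.95 and 4.58 in brain. All 4 group means of Polk were below the lower quartile of all signals, and its difference was −0.13 ± 0.10 in untreated rats (adjusted p = 0.296) and 0.01 ± 0.11 in MRT rats (adjusted p = 0.959, 4.39 to 4.91, median 4.75, and 4.46 to 4.95, median 4.70). Its promoter held an E2F word.

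After MRT, 4 members fell in contralateral brain and none rose. They were Pola1, Ccne2, Blm and Topbp1, from 4 different role groups, with falls of 1.23- to 1.47-fold. Over all probe sets 1.24% fell and 2.86% rose, and of genes taken at 1 probe set each 1.39% fell. For 7 of the 45 genes the unadjusted p was under 0.05 (13.0% of all probe sets), and the median log2 change of the members was −0.04 against −0.02 over all probe sets. SAM, the test named in the study's methods, also called these 4 genes and no other member. The 95% interval of all 45 genes lay within 2-fold in either direction. Samples of the 2 groups did not overlap for 2 members, both lower (1.29% of all probe sets were lower without overlap), and for 0 in the higher direction (2.51%).

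Pola1, which starts each new strand with primase, had 6.41, 6.71, 6.79, 6.81 and 6.94 in untreated brain and ranged from 5.93 to 6.60, median 6.12, after MRT. Only the sample of MRT rat 6 lay within the untreated range. The change was −0.56 ± 0.13 (1.47-fold lower, 95% interval −0.83 to −0.29, adjusted p = 0.0214). Ccne2, which drives S-phase entry, had 8.23, 8.42, 8.16, 8.39 and 8.49 in untreated brain and 7.54 to 8.23, median 7.79, after MRT. The groups overlapped by 1 MRT sample, rat 7, with a change of −0.52 ± 0.12 (1.43-fold lower, −0.78 to −0.25, adjusted p = 0.0301). The second probe set of Ccne2 changed by 0.08 (95% interval −0.20 to 0.35), but its brain means were below the lower quartile of all signals. The fall was measured at 1 of the 2 probe sets.

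Blm had 7.11, 7.25, 7.40, 7.12 and 7.10 in untreated brain and ranged from 6.41 to 6.93, median 6.77, after MRT. Every MRT sample lay below every untreated one, and the change was −0.47 ± 0.10 (1.39-fold lower, −0.70 to −0.25, adjusted p = 0.018). Topbp1, the fork checkpoint activator, had 8.84, 8.81, 8.75, 8.80 and 8.91 in untreated brain and 8.41 to 8.70, median 8.51, after MRT. The groups did not overlap for this probe set either, and the change was small, −0.30 ± 0.07 (1.23-fold lower, −0.46 to −0.14, adjusted p = 0.0378). Its second probe set changed by −0.11 with a wide interval (−0.75 to 0.53).

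**Figure D2:**
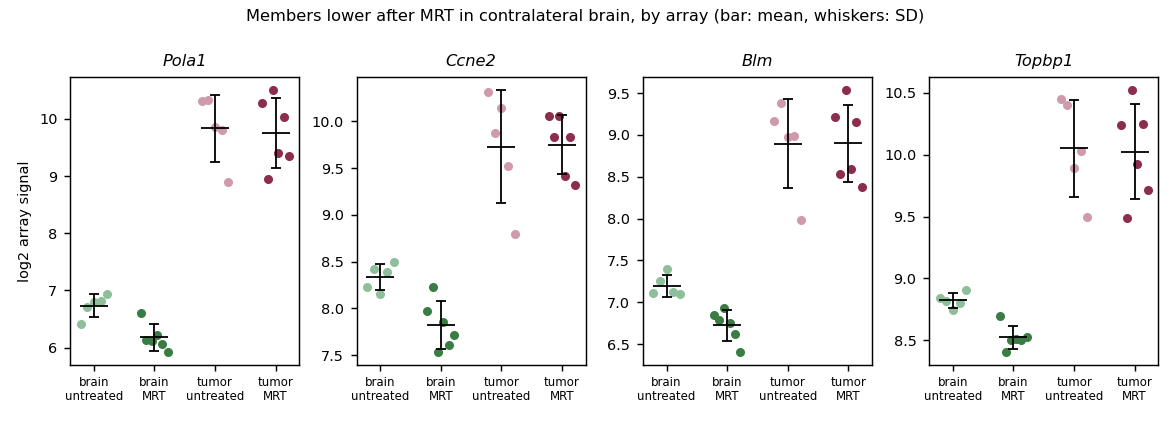
Log2 array signal of Pola1, Ccne2, Blm and Topbp1 in each sample of the 4 groups (points; bar, mean; whiskers, SD; n = 5 untreated and 6 MRT rats per tissue; the vertical scale differs between panels). In brain the MRT samples lie lower, without overlap for Blm and Topbp1, while the tumor groups overlap and lie above brain.

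These 4 falls were sensitive to single rats. Leaving out 1 rat gave 0 members past the test without untreated rat 2, 1 (Blm) without untreated rat 4 or 5 or MRT rat 8, 10 or 11, 2 (Pola1 and Blm) without untreated rat 1 or MRT rat 9, and 4 or 5 otherwise. Blm lost the test for 1 of 11 rats left out (highest adjusted p = 0.0541), Pola1 for 6 (0.0683), Ccne2 for 8 (0.0918) and Topbp1 for 8 (0.11), and the sign never changed. With all 4 groups in 1 fit, so that brain and tumor share 1 estimate of the spread, none of the 4 passed (adjusted p from 0.32 to 0.64). On the contralateral arrays the labelling controls split the rats into a set with a small gap between 5′ and 3′ signal (rats 1, 5, 9, 10 and 11) and a set with a large gap (rats 2, 3, 4, 6, 7 and 8). On the tumor arrays the same sets were not separate, since the gap was larger in rat 1 than in rat 6. Within the former the changes were −0.60 for Pola1, −0.63 for Ccne2, −0.51 for Blm and −0.36 for Topbp1, and within the latter −0.49, −0.41, −0.40 and −0.25.

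In the other role groups the members with the smallest p did not pass. Mcm6 had 6.55, 7.08, 6.89, 6.89 and 6.71 in untreated brain and 6.09 to 6.78, median 6.41, after MRT, a change of −0.39 ± 0.14 (unadjusted p = 0.0154, adjusted p = 0.198). Tk1 changed by −0.31 ± 0.20 (adjusted p = 0.633), with 7.61, 7.38, 7.85, 7.55 and 6.93 in untreated brain and 6.66 to 7.67, median 7.11, after MRT. The groups overlapped for both genes. Cdc45 stayed at 7.29, 7.41, 7.61, 7.64 and 7.53 and 7.32 to 7.86, median 7.55 (0.07 ± 0.11, adjusted p = 0.922). Among repair genes Rad50 had 8.64, 8.69, 8.66, 8.64 and 8.45 in untreated brain and 8.04 to 8.68, median 8.48, after MRT (−0.17 ± 0.11, adjusted p = 0.618). In Prkdc 5 of the 6 MRT samples lay inside the untreated range, with 8.20, 8.62, 7.85, 8.30 and 8.30 against 7.53 to 8.22, median 8.16 (−0.22 ± 0.15, adjusted p = 0.668). Polh had 6.21, 6.07, 5.93, 6.17 and 6.19 in untreated brain and 6.07 to 6.44, median 6.19, after MRT (0.10 ± 0.09, adjusted p = 0.805). None of these changes could be told from the spread between rats.

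Pcna and Brca2 are named because their unadjusted p was under 0.05, a choice made after their values were seen. Pcna, often listed among the targets of p53, had 11.30, 11.42, 11.43, 11.24 and 11.44 in untreated brain and 11.39 to 11.83, median 11.64, after MRT, a change of 0.24 ± 0.09 (unadjusted p = 0.0215, adjusted p = 0.242). Brca2 changed by −0.21 ± 0.09 (unadjusted p = 0.0327, adjusted p = 0.306). Break sensing, end joining and excision repair genes had 0 of 12 past the test, with changes from −0.22 to 0.15. No change of these 12 transcripts was detectable in brain at 6 h with this number of rats.

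In the same samples 9 of 11 p53 target genes rose in brain (4.41% of genes taken at 1 probe set each rose, median of the list 1.17), with Cdkn1a, the cyclin-dependent kinase inhibitor p21, at 4.09. Of 16 mitosis genes 15 were negative (median −0.19, against −0.02 over all probe sets). Among the 16, 2 passed the test as lower (Top2a, −0.58, and Ttk, −1.06), and 1.39% of genes taken at 1 probe set each fell. The 2 became 1 without untreated rat 2 or 4 or MRT rat 9 or 11, and 3 without untreated rat 1 or MRT rat 7. Markers of other cells moved too. Of 5 oligodendrocyte progenitor markers 1 fell (Pdgfra, −0.67), with log2 summed signals of 12.35 to 13.18 in untreated and 12.03 to 13.25 in MRT brain. The 13.25 came from MRT rat 7, and the other MRT samples reached at most 12.41. Neutrophil markers rose for 3 of 3 (7.41 to 7.77 and 7.96 to 12.03) and T cell markers for 3 of 5 (8.11 to 8.53 and 8.38 to 9.47). MRT rat 7 also gave the 7.96 and the 8.38, while the other MRT samples were at least at 11.08 and 9.03. Of 6 microglia and macrophage markers 4 fell and 2 rose (11.2 to 11.3 and 10.5 to 10.9). Neuron markers had 0 of 5 past the test (15.80 to 16.09 and 15.87 to 16.02). The part of these cells in the 4 falls was not tested.

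In tumor 0 of 45 members passed the test after MRT, against 0.918% of all probe sets (0.593% higher and 0.325% lower), and 0 had an unadjusted p under 0.05, against 8.39% of all probe sets. SAM also called 0. The groups were free of overlap for 0 members in either direction (0.989% of all probe sets higher and 0.612% lower). Of the 45 estimates 22 were positive and 23 negative. For the members the spread between tumors was wider than between brain samples, with a median SE of 0.25 against 0.12. Over all probe sets the median SE was 0.14 in tumor and 0.12 in brain. The 95% interval lay within 2-fold for 42 of the 45 genes. The other 3 were Gins1, H2afx and Brca1. Changes of up to about that size can be missed here, so the test does not show that the members stayed level.

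The members of each role with the smallest p were as follows. Gins1 had 10.18, 9.77, 9.66, 9.19 and 8.28 in untreated tumors and 8.09 to 9.45, median 8.94, after MRT, and MRT samples lay between untreated rat 1 and rat 5 except for MRT rat 9. The change was −0.58 ± 0.33 (95% interval −1.29 to 0.14, adjusted p = 0.754). Mcm5 changed by 0.09 ± 0.26 (adjusted p = 0.985), with 10.86, 10.39, 10.71, 9.87 and 9.43 in untreated and 9.72 to 10.67, median 10.40, in MRT tumors. Rfc4 had 11.23, 11.10, 11.21, 10.86 and 9.94 and 10.29 to 11.23, median 10.70 (−0.18 ± 0.25, adjusted p = 0.973). In both genes untreated rat 5 was the lowest of its group. Tyms had a positive estimate, 0.29 ± 0.23 (adjusted p = 0.899), from 8.47, 7.38, 7.64, 7.16 and 7.18 in untreated and 7.41 to 8.27, median 7.85, in MRT tumors. Ccne1 had 8.98, 9.44, 9.49, 9.22 and 8.51 and 8.70 to 9.65, median 9.24, a change of 0.07 ± 0.21 (adjusted p = 0.986) that turned to −0.11 with array weights.

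Checkpoint and repair genes had 0 of 23 past the test in tumor. Chek2 had 7.40, 7.73, 7.71, 7.35 and 6.81 in untreated tumors and 6.29 to 7.57, median 7.37, after MRT (−0.33 ± 0.27, adjusted p = 0.901). H2afx had 10.54, 10.09, 10.57, 9.63 and 9.22 and 9.02 to 10.32, median 9.41, with a change of −0.51 ± 0.28 (95% interval −1.14 to 0.11, adjusted p = 0.742). Brca1 had the largest positive estimate, 0.45 ± 0.33 (−0.26 to 1.17, adjusted p = 0.862), with 6.71, 6.77, 6.11, 6.32 and 5.78 in untreated and 5.64 to 7.45, median 6.95, in MRT tumors. Its 6 MRT tumors spread more than those of any other gene named here. Prkdc had 9.62, 9.66, 9.14, 9.34 and 8.78 and 8.29 to 9.58, median 9.12 (−0.23 ± 0.24, adjusted p = 0.943), and Polh 7.18, 7.10, 6.92, 6.67 and 6.48 and 6.75 to 7.35, median 7.06 (0.19 ± 0.16, adjusted p = 0.916). Groups overlapped for all of these genes.

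**Figure D3:**
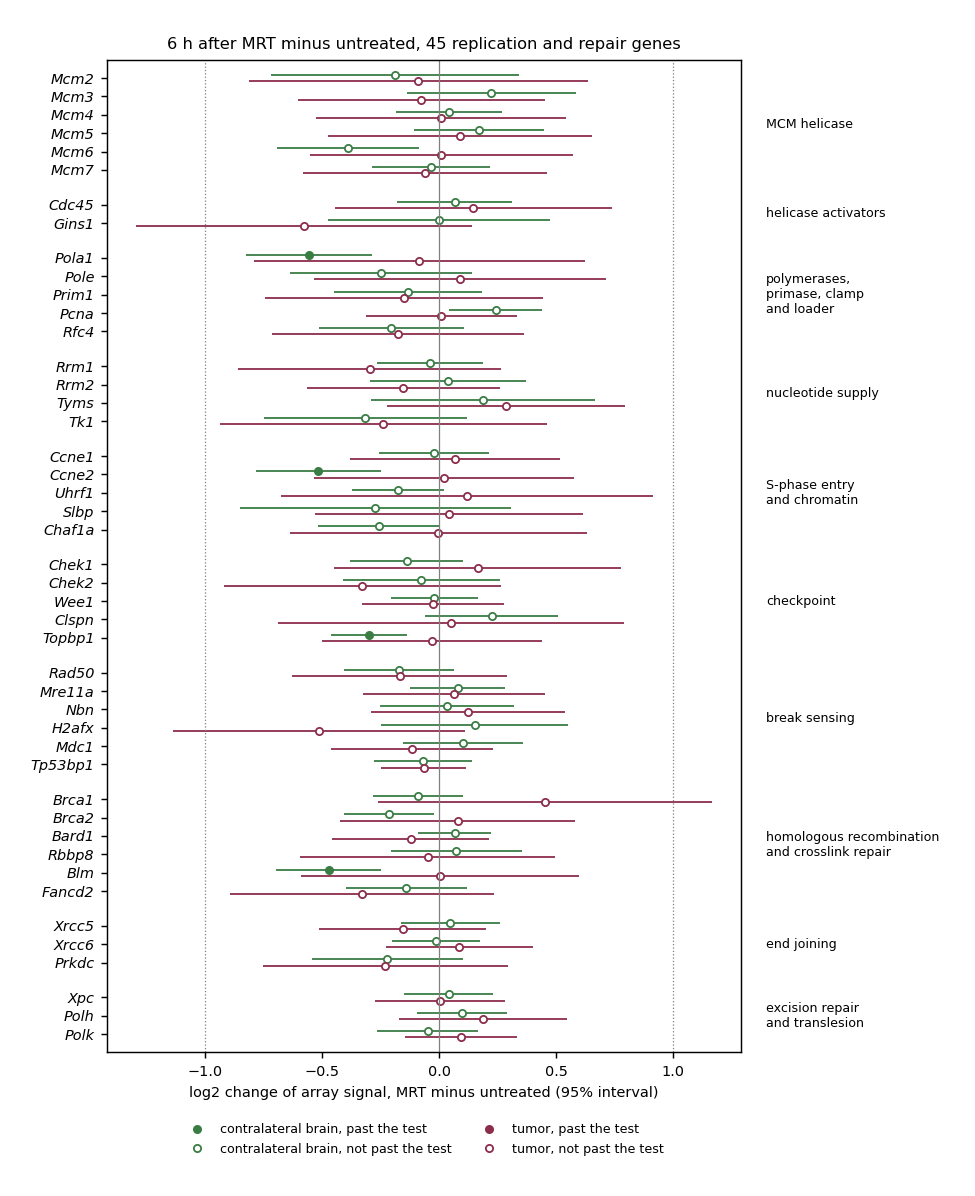
Log2 change of array signal, MRT minus untreated, for the 45 genes grouped by role, in contralateral brain (green) and tumor (dark red), n = 6 MRT and 5 untreated rats in each tissue. Points are limma estimates with 95% intervals, filled points passed the test, and dotted lines mark 2-fold. Only Pola1, Ccne2, Blm and Topbp1 in brain are filled, and the tumor intervals are the wider ones.

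In tumor part of the spread was shared by the members, but replication genes and checkpoint and repair genes parted in MRT rat 7. For each array the deviation of every gene from its group mean was taken and the median over the 22 replication genes is given. In untreated tumors of rats 1 to 5 it was 0.46, 0.25, 0.26, −0.19 and −0.85. Untreated rat 5 stood lowest. Among MRT tumors it was −0.45 in rat 11 and −0.40 in rat 9, and 0.09 to 0.37 in the other 4. The 16 mitosis genes followed, at −0.92 in untreated rat 5, −0.59 in MRT rat 9 and −0.51 in MRT rat 11. In contralateral brain the median of the replication genes stayed between −0.11 and 0.17. The 23 checkpoint and repair genes were at −0.52 in the tumor of untreated rat 5, −0.23 in MRT rat 9 and −0.29 in MRT rat 11. In the tumor of MRT rat 7 they were at −0.27, with replication genes at 0.09 and mitosis genes at 0.38. The tumor of untreated rat 5 also had the highest deviation of the 6 microglia and macrophage markers, 1.24 against −0.32 to −0.19 in the other 4 untreated tumors, and of the 3 neutrophil markers, 1.35 against −0.59 to 0.13. Among MRT tumors the microglia and macrophage markers deviated most in rat 11 (0.57). Markers of brain tissue were raised in the 3 tumors lowest in replication genes, and also in untreated rat 4. Untreated rat 4, at −0.19 for replication genes, had 0.29 for astrocyte, 0.32 for neuron and 0.35 for oligodendrocyte markers. In the remaining tumors these marker lists reached at most 0.04. In untreated rat 5, MRT rat 9 and MRT rat 11 the deviation was 0.52, 0.33 and 0.41 for astrocyte markers, 0.32, 0.15 and 0.24 for neuron markers, and 0.18, 0.59 and 0.49 for oligodendrocyte markers. Tumor mesenchyme markers were lowest in these tumors within their groups, at −0.27, −0.28 and −0.34, while microglia and macrophage markers were at 0.01 in MRT rat 9. The part of immune cells and of brain tissue in the low replication signal was not tested. Without untreated rat 5, 0 members passed in tumor, 4 had an unadjusted p under 0.05 and the median change of the members was −0.21, and the untreated tissue comparison again had 43 members higher and 1 lower.

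**Figure D4:**
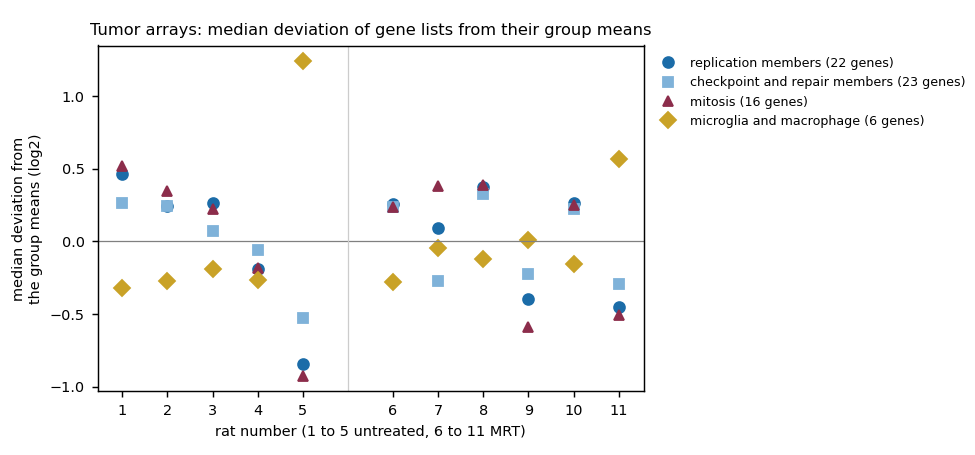
Median deviation (log2) of 4 gene lists from their group means on each tumor array, by rat number (1 to 5 untreated, 6 to 11 MRT). Replication, checkpoint and repair, and mitosis genes are low together in untreated rat 5 (−0.85 for replication) and in MRT rats 9 and 11. In MRT rat 7 checkpoint and repair genes are low (−0.27) while replication and mitosis genes are not. Microglia and macrophage markers are high in untreated rat 5 (1.24).

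The response of the members did not differ detectably between tissues. In the fit of all 22 arrays 0 of 45 passed the test of the difference (0.467% of all probe sets), and 0 had an unadjusted p under 0.05 (3.85% of all probe sets). For the 4 genes that fell in brain, the tumor change minus the brain change was 0.47 ± 0.36 for Pola1 (95% interval −0.28 to 1.22), 0.54 ± 0.29 for Ccne2 (−0.07 to 1.14), 0.47 ± 0.30 for Blm (−0.15 to 1.10) and 0.27 ± 0.23 for Topbp1 (−0.21 to 0.75). All 4 intervals held 0, and the tumor changes themselves were −0.09, 0.02, 0.00 and −0.03. The falls were thus not shown to differ between tissues. H2afx had the largest difference in the other direction, −0.66 ± 0.35 (−1.40 to 0.07).

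Mitosis genes were set beside the members. Of 16, 4 fell in tumor after MRT (0.379% of genes taken at 1 probe set each fell), which were Ccnb1 (−1.39), Plk1 (−1.41), Aurka (−1.45) and Cdc20 (−2.05), all needed for entry into or passage through mitosis, and 16 of 16 estimates were negative (median −0.79). Against brain, 3 of them (Ccnb1, Plk1 and Cdc20) also passed the test of the difference. That count of 3 became 1 without untreated rat 1, 2, 3 or 4 or MRT rat 11, 2 without MRT rat 6, 8 or 9, and 4 without untreated rat 5. The tumor count of 4 became 1 without untreated rat 2, 3 or 4, 2 without untreated rat 1 or MRT rat 6 or 10, 3 without MRT rat 8, 9 or 11, and 7 without untreated rat 5. Of 11 p53 targets 5 rose in tumor (median 1.02, 0.882% of genes taken at 1 probe set each rose), among them Cdkn1a at 2.71 and Mdm2 at 1.24. Of the p53 targets 3 passed the test of the difference, rising less in tumor than in brain. They were Cdkn1a (−1.38), Phlda3 (−1.45) and Fas (−1.65), and leaving out 1 rat gave 1 to 4. In tumor the replication genes had a median change of 0.002 and the checkpoint and repair genes of −0.03.

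**Figure D5:**
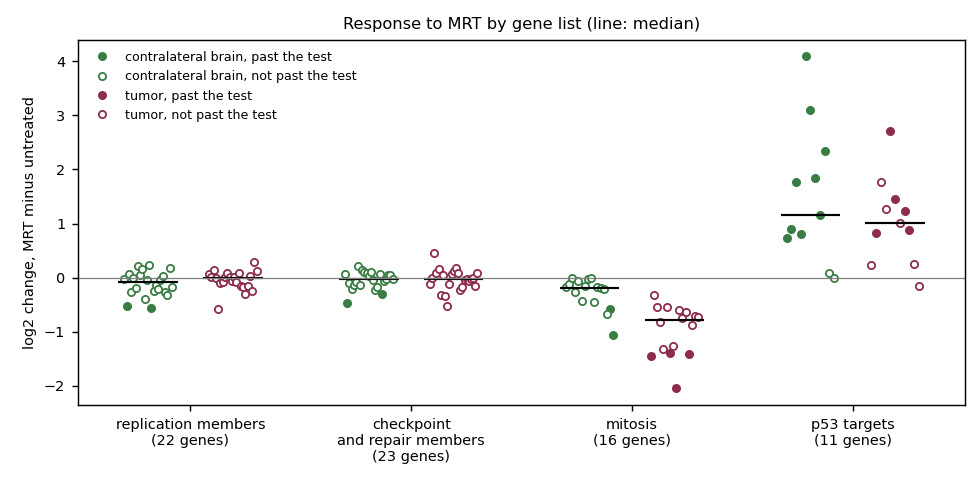
Log2 change, MRT minus untreated, of each gene in 4 lists (22 replication genes, 23 checkpoint and repair genes, 16 mitosis genes, 11 p53 targets), in contralateral brain (green) and tumor (dark red). Points are genes, filled where past the test, and lines are medians. Replication and repair genes lie around 0 in both tissues, mitosis genes lie lower in tumor (median −0.79), and p53 targets lie higher in both (medians 1.17 and 1.02). The brain signals of the mitosis list lie near the lower quartile of all signals.

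Other genes of the same pathways were counted from a wider list. Of its 104 names (among them origin recognition, other polymerase and clamp loader subunits, mismatch, base and nucleotide excision repair, Fanconi and recombination genes) 79 were measured. In untreated rats 59 were higher in tumor (29.9% of genes taken at 1 probe set each) and 5 lower (29.3% of all probe sets). Their median log2 difference was 0.95. After MRT 0 of 79 passed in tumor (0.918% of all probe sets) and 1 in brain. It was Mgmt, the protein that removes alkyl groups from guanine, which rose by 0.62 ± 0.13 (SE, adjusted p = 0.0169) in brain. Of genes taken at 1 probe set each 4.41% rose and 1.39% fell in brain. With each of the 11 rats left out in turn the list had 1 gene past the test as higher, and also 1 as lower without untreated rat 3 and 2 without MRT rat 6.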

How the data were processed

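RNA of 11 tumors and 11 contralateral brain samples from 11 rats was hybridised to Affymetrix GeneChip arrays of the rat genome. The authors deposited linear signal intensity per probe set after RMA in Affymetrix Expression Console, rounded to whole numbers (10 to 36564). The authors' MAS5 detection flags are not part of these values. Intensities were log2 transformed here, and the 57 control probe sets were left out, leaving 31042. The number of arrays limits the precision.

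The tests were limma 3.58.1 in R 4.3.3, with Benjamini-Hochberg adjustment over all 31042 probe sets and a threshold of 5%. MRT was compared with untreated rats within each tissue, tumor with brain within each treatment, and the difference between tissues in the MRT response over all 22 arrays. SAM with 100 permutations, named in the study's methods, was an alternative. Tests were checked on simulated data with independent noise for each probe set and array. That check does not cover the link between tissues of a rat or shifts shared by the genes of an array. Values are given per array for members past an MRT test and for the member with the smallest p of each role, and in the tissue comparisons for the members of each role with the largest and the smallest difference. Members and lists were chosen with earlier results of these data known.

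Tumor and brain with the same rat number come from the same animal. Their residuals correlated with a median r of 0.31 (0.097 to 0.65, n = 11 pairs), against −0.056 between different rats. The main fits had no rat term, and fits with the rat as a block were alternatives. Other alternatives were a floor at the lower quartile, a filter on dim probe sets, cyclic loess, array weights and the mean over probe sets. Further ones were a variance trend, a threshold of 1%, leaving out each rat, and a block for the sets of rats split by labelling controls. That split was taken from the control signals on the contralateral arrays, and the labels name no batch. The study was run in 2 experimental sessions that the labels do not assign to samples, so no session term was fitted. Figures used matplotlib 3.10.9.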

Additional observations from a re-analysis of the deposited data

Results flagged for a closer look

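In 3 of the 72 groups of member values examined, 1 sample stood apart from the rest of its group by Dixon's criterion, and chance alone flags about 1 in 20 groups. Rad50, a subunit of the Mre11 complex, had a log2 signal of 8.447 in contralateral brain of untreated rat 5, below the other 4 (8.644 to 8.687). Rfc4, a clamp loader subunit, had 9.943 in the tumor of untreated rat 5, below the other 4 (10.86 to 11.23). H2afx, the histone variant marked at breaks, had 9.066 in contralateral brain of untreated rat 3, above the other 4 (8.209 to 8.397).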

How the results depend on the processing

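The count of 4 members lower in brain after MRT was 0 at a threshold of 1% and 0 with all 4 groups in 1 fit, 2 with the mean over probe sets, and 2 among the 21 members above the median level. It was 3 with the floor, with cyclic loess and with the variance trend, and 4 with the labelling-control sets of rats as a block. With array weights it was 6, of which 1 was higher and 5 lower. Leaving out 1 rat gave 0 to 5. In tumor and for the difference between tissues the count was 0 under every alternative run. The count in untreated rats of 44 members differing between tissues lay between 34 (all 34 tested above the median level) and 44. Estimates near 0 changed sign for Ccne1 in tumor with array weights (−0.11), and, with a rat left out, for Mcm5 in tumor (−0.12 to 0.24), Ccne1 in tumor (−0.088 to 0.17) and Polk between tissues in MRT rats (−0.023 to 0.038). The cause was not tested. With the rat as a replicate block 43 members passed in untreated rats (Wee1 lost, adjusted p = 0.052), 43 in MRT rats and 0 for the difference between tissues. No paired analysis was possible for MRT against untreated because these groups share no rat. Of the values compared, 896 kept direction and side of the threshold, 53 lost the test and 8 changed sign. Tumor estimates of the members had about double the error of their brain estimates, which limits what can be detected there.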
